A study of Mus musculus with 11 samples.

Results

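Mice that carry the E-mu-BRD2 transgene came to attention through different clinical signs, and here the lymphomas of mice with a visible solid tumour were compared with those of mice that had stopped building nests. The arrays were grouped by the recorded sign. The solid tumour group held 3 arrays, marginal 1 (neck tumor), marginal 4 (leg tumor) and marginal 5 (haunch tumor). The failure-to-nest group held 7 arrays, marginal 2 and 3 and transitional 1 to 5. Together they made up 10 of the 11 arrays analysed, and the remaining array, marginal 6 from a mouse with paralysis, was left out of the comparison. Signs were taken from the labels and not from any measured value.

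All 10 mice were of the FVB background and carried BRD2 under the enhancer of the immunoglobulin heavy chain gene, which is active in B cells. All 10 lymphomas were recorded as oligoclonal for immunoglobulin, and no flow cytometry was recorded for any of them. Spleen enlargement was recorded as marginal in marginal 1, mild in marginal 4 and moderate in marginal 5. Among the mice that failed to nest it was mild in marginal 2, marginal 3 and transitional 3, severe in transitional 1 and 2 and one step less (moderately severe) in transitional 4 and 5. The severity class of the series runs with the sign, since all 3 solid tumour mice were marginal and 5 of the 7 others were transitional. Sign and class can be told apart only within the marginal class, by 3 arrays against 2. The difference from marginal 2 and 3 is therefore given beside most list medians and for some of the genes. A difference given alone is against all 7 failure-to-nest arrays, where sign and class are mixed. The tissue that each RNA came from, the age of the mice and their sex are not given in the sources used here. Normal B cells and a further severity class named in the design are not analysed here.

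BRD2 belongs to the BET family of proteins, which bind acetylated histones through paired bromodomains and bring chromatin remodelling and transcription factors, E2F among them, to active genes. Expressed from the heavy chain enhancer, it leads to B cell lymphoma in mice. Failure to build a nest is a general sign of illness in a mouse, while a mass at the neck, leg or haunch is local. In a bulk array signal, fewer cells of a type and less RNA per cell cannot be told apart in any value below.

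Each array gave a signal for 22626 probe sets other than controls. Median signals lay between 98.8 (transitional 5) and 151 (transitional 2), with 137 to 144 on the 3 solid tumour arrays. Xist, the transcript of the inactive X chromosome, had a signal of 2399 or more on all 3 solid tumour arrays and on marginal 3, transitional 3 and transitional 4. On marginal 2 and transitional 1, 2 and 5 it was 20.4 or less, with 279.8 or more for the Y-linked Eif2s3y, so these transcripts ran partly with the sign. Their part in the results was not tested beyond fits restricted to, or adjusted for, arrays with Xist. Transitional 4 and 5 had the highest levels of erythroid genes and the lowest of B cell genes, and each described list median that turned sign without them is given without them as well.

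No probe set passed the test between solid tumour and failure to nest. With limma across all 22626 probe sets, 0 (0%) had a Benjamini-Hochberg adjusted p of 0.05 or less in either direction. At an unadjusted p under 0.05 there were 669 with a higher mean (2.96%) and 311 with a lower mean (1.37%) in solid tumour, together 4.33% of probe sets. All 980 had the same sign against marginal 2 and 3 alone, but these arrays are among those that chose the 980, so the count is no independent check of direction. In that comparison limma also called 0 (0%) in either direction (smallest adjusted p = 0.99967), with 406 higher (1.79%) and 147 lower (0.65%) at an unadjusted p under 0.05. The smallest adjusted p between solid tumour and failure to nest was 0.17 by limma. It belonged to a dim probe set of Fabp1, a fatty acid binding protein of liver and gut, and was singled out after its values were seen. Fabp1 signals were 38, 33.8 and 33.9 on the solid tumour arrays, and ran from 1.2 to 7.5 with a median of 3.1 in the other group. All of these lie far below the median signal of the arrays, and the liver list had 6 of 6 genes below a signal of 100 on all 10 arrays.

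The split between higher and lower depended on scale. With the deposited signals the median log2 difference over all probe sets was 0.07 and 68.3% of the 980 were higher in solid tumour, but after scaling each array to a common median these were -0.06 and 35.5% (315 higher, 573 lower). After quantile normalization 483 were higher and 447 lower. With no call to rest on, the members are described below by their signals on each array and by whether the groups overlap. At a mean signal of at least 200 in the higher group, all 3 solid tumour arrays lay above all 7 others for 157 of 10664 probe sets (1.47%) and below all 7 for 86 (0.806%). Scaling each array to a common median gave 49 above and 124 below, so the lean to higher signals did not hold there, and leaving out 1 array gave up to 592 above (without marginal 1) and up to 369 below (without marginal 5). Counted by the brightest probe set of each gene, this was so for 97 of 6378 genes (1.52%) above and 55 (0.862%) below. Against marginal 2 and 3 alone, where only 2 arrays have to be cleared, the shares were 9.51% above and 6.59% below of probe sets, and 9.11% and 6.44% of genes. Differences are solid tumour minus failure to nest on the log2(signal + 16) scale, where 1 means 2 times the value of signal + 16. For dim probe sets the ratio of the signals themselves is larger. An SE is limma's standard error.

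Brd2, the mouse gene that corresponds to the transgene, had higher signals on the solid tumour arrays. Its brighter probe set gave 3498 in the neck tumor, 3504 in the leg tumor and 3242 in the haunch tumor mouse. In the failure-to-nest group it gave 2486 and 2331 on marginal 2 and 3, and 3001, 2763, 2540, 1844 and 2077 on transitional 1 to 5. All 3 solid tumour arrays lay above all 7 others, with a difference of 0.50 (SE 0.19), or 3415 ± 149 (SD, n = 3) against 2434 ± 394 (SD, n = 7). Against marginal 2 and 3 alone the difference was also 0.50 (SE 0.26). An exact permutation test over the 120 splits of the arrays, on the deposited signals, gave a two-sided p of 0.0167 (0.0333 adjusted over both Brd2 probe sets). This is the smallest p the design allows, and any probe set without overlap gets it. It restates the lack of overlap and is no separate support. By limma the p adjusted over all probe sets was 0.958. Of 3 against 2 arrays no exact p can be below 0.2.

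The dimmer Brd2 probe set gave 828, 1221 and 834 on the solid tumour arrays. It ran from 486 to 864 in the failure-to-nest group, with a median of 682. Transitional 3, at 864, lay above 2 of the 3 solid tumour arrays, so here the groups overlapped. The difference was 0.51 (SE 0.22), and 0.44 (SE 0.31) against marginal 2 and 3. Its exact permutation p was 0.05 (two-sided). After scaling to a common median the differences of the brighter and dimmer probe sets were 0.32 and 0.33 and the groups overlapped for both. Without transitional 4 and 5 they were 0.38 and 0.39. Whether either probe set reads the transgene was not tested.

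Most measured genes of the BET family and its chromatin partners had a higher mean in solid tumour. Of 15 measured genes 12 were higher and 3 lower, with a median difference of 0.46, against a median of 0.08 and 57.9% higher over all 7547 measured genes. This share and median over all genes are the background for the counts and medians of every list below. Against marginal 2 and 3 alone 11 of 15 were higher, with a median of 0.34. None passed the test. For 3 of the 15 all solid tumour arrays lay above all others, beside 1.52% of all genes. The list score is, for each array, how far its measured members lie on average from their 10-array means, in log2 units. It was 0.20, 0.14 and 0.26 on the neck, leg and haunch tumor arrays. In the other group it ran from -0.25 on transitional 5 to 0.03 on marginal 2, with no overlap on the deposited signals. No score is given after scaling to a common median, where Smarcb1, Brd2 and Brd3, the 3 genes without overlap, all overlapped. The median was 0.28 after scaling to a common median, 0.42 after quantile normalization and 0.38 without transitional 4 and 5.

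Smarcb1, a core subunit of the SWI/SNF chromatin remodeller, was among the 3 genes without overlap. Its signal was 891, 1135 and 985 on the solid tumour arrays. In the other group it ran from 639 to 824 with a median of 685. The difference was 0.49 (SE 0.17), and 0.50 (SE 0.24) against marginal 2 and 3. Brd3, a BET protein closely related to Brd2 and named here after its values were seen, gave 426, 330 and 395 in solid tumour. It ran from 222 to 320 with a median of 240 in failure to nest, a difference of 0.53 (SE 0.22). The gap was narrow, between 330 for the leg tumor mouse and 320, and after scaling to a common median both Smarcb1 and Brd3 overlapped between the groups. Hdac2, a histone deacetylase of several repressor complexes, was lower, at 208, 291 and 456 against 375 to 716 with a median of 503. Its difference was -0.69 (SE 0.28), and the haunch tumor array lay within the range of the other group.

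**Figure D1:**
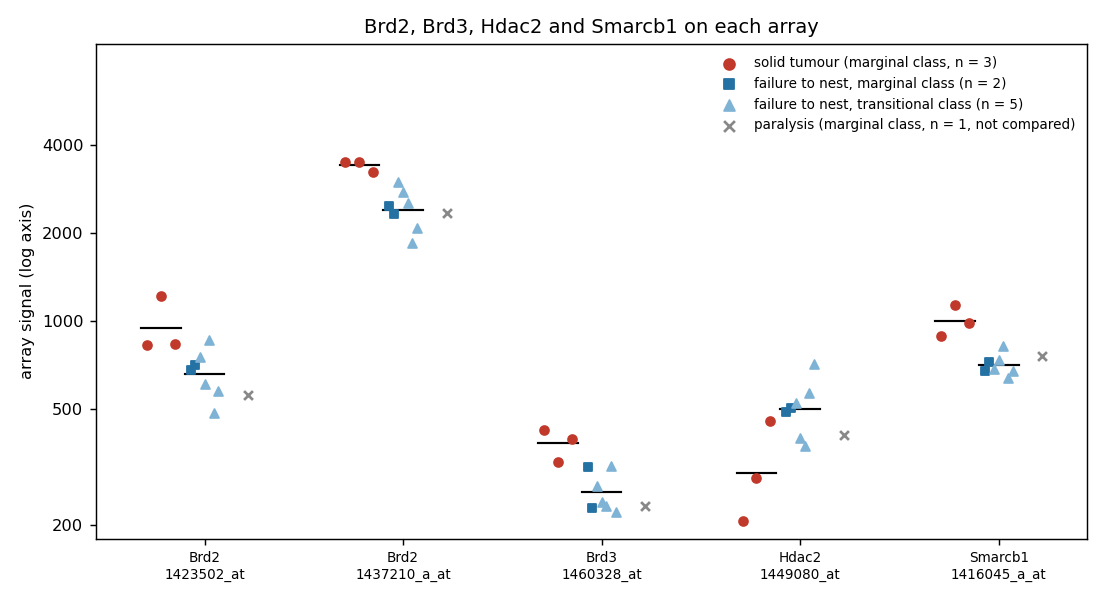
Array signal (log axis) of both Brd2 probe sets and of Brd3, Hdac2 and Smarcb1 on each of the 11 arrays. Each point is 1 array, a short bar is the group mean on the log2(signal + 16) scale, and the paralysis array is shown but not compared. For the brighter Brd2 probe set the 3 solid tumour arrays lie between 3242 and 3504 and the 7 others between 1844 and 3001.

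The genes with the largest differences between group means were taken in each direction, 12 a side, from probe sets whose groups did not overlap. The gap between the nearest arrays of the 2 groups played no part in their order and was narrow for some. Their values chose them, so they are a description with no test of their own, and the smallest limma adjusted p among the 24 was 0.958. The differences of the 12 higher genes ran from 0.97 to 1.89 and those of the 12 lower genes from -2.0 to -0.88. Against marginal 2 and 3 alone they ran from 0.47 to 1.68 and from -2.09 to -0.45. The sign is fixed there by the choice, since genes without overlap against all 7 arrays have none against 2 of them. After scaling to a common median 8 of the 12 higher and 10 of the 12 lower genes were still without overlap.

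Ceacam1, an adhesion receptor of the immunoglobulin superfamily with inhibitory motifs in its tail, had the largest difference among the 12 higher genes after Malat1, whose value rested on 1 array. Its leading probe set gave 1936, 1348 and 1935 on the neck, leg and haunch tumor arrays. The failure-to-nest arrays gave 589 and 764 in the marginal class and 463, 743, 393, 739 and 156 on transitional 1 to 5. The lowest solid tumour signal was well above the highest of the other group, and the difference was 1.76 (SE 0.43), or 1.33 (SE 0.56) against marginal 2 and 3. Leaving out each array in turn moved it between 1.5 and 1.93. The array carried 8 probe sets for Ceacam1, and all 8 had a higher mean in solid tumour, by 0.32 to 1.76, with 6 of them free of overlap. Probe sets whose names end in x_at or s_at can bind related transcripts, and the closely similar Ceacam2 is 1 such candidate. The paralysis array, at 1299, lay between the groups.

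**Figure D2:**
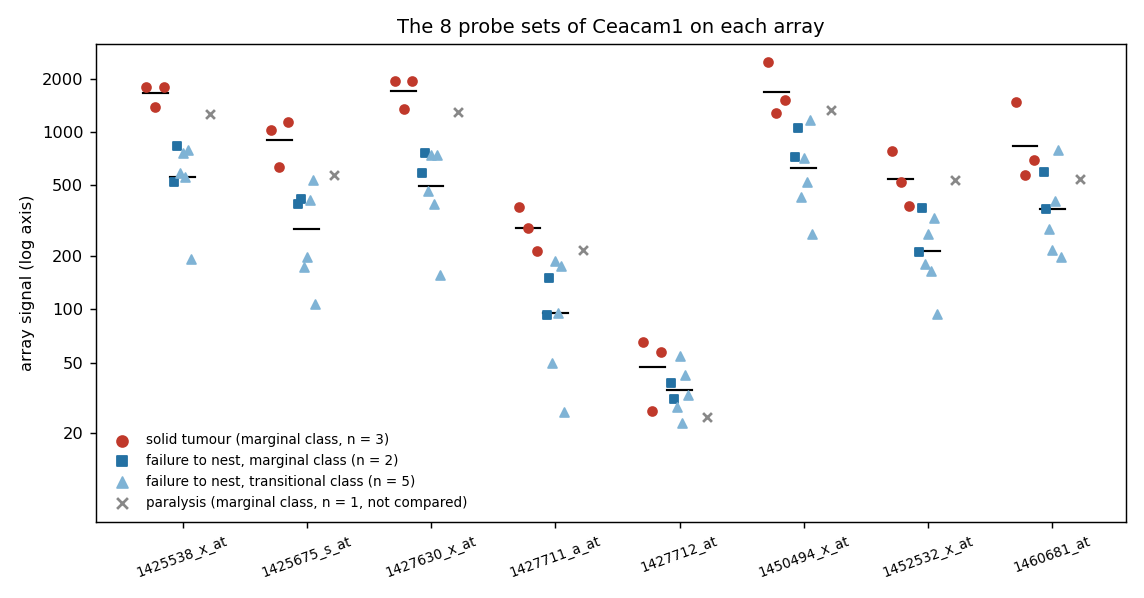
Array signal (log axis) of the 8 Ceacam1 probe sets on each array, with points and bars as for Brd2. In 6 of the 8 the 3 solid tumour arrays lie above all 7 failure-to-nest arrays, and transitional 5 is the lowest array in 7 of the 8.

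The bases before the start sites of Ceacam1 and of Cops2 are printed as 1 example in each direction, both with a large difference that did not rest on 1 array. Both are RefSeq sequences of build GRCm38.p6, 250 bases upstream on the minus strand, Ceacam1 at chr7:25477626-25477875 and Cops2 at chr2:125859083-125859332. Capitals mark an E box, the letters CACGTG, a sequence that Myc and related factors can bind.
Ceacam1: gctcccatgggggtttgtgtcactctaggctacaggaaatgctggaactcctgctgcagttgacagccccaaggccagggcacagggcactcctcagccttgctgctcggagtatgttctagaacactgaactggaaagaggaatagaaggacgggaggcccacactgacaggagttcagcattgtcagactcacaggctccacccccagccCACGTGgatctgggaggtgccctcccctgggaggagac
Cops2: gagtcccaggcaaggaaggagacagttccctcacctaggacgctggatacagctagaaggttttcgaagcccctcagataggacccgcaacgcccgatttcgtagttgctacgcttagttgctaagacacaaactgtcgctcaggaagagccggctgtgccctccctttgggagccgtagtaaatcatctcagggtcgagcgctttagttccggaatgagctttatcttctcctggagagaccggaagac
The Ceacam1 window holds 1 E box, 38 bases upstream of the start, and 6.04% of the 32536 windows of this length hold one. CCAAT (in 33.8% of windows), GGGCGG (33%) and TATAAA (12.3%), searched on both strands, are in neither window, and the Cops2 window has no CACGTG. This says only which letters the windows hold.

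Malat1, an abundant nuclear noncoding RNA, had the largest difference of the 12 higher genes, at 1.89 (SE 0.58), and it rested on the haunch tumor mouse. The signals were 2834, 2589 and 21701 in solid tumour and ran from 893 to 2394 with a median of 1578 in failure to nest. The groups did not overlap, but without marginal 5 the difference was 0.90. Among genes of the actin and microtubule skeleton, Cyfip2, a subunit of the WAVE complex, gave 1900, 1740 and 2628 against 265 to 1628 (median 1094), a difference of 1.25 (SE 0.46). Tpm3, a tropomyosin that coats actin filaments, gave 2045, 2245 and 3191 against 747 to 1670 (median 898), a difference of 1.21 (SE 0.30). This is an x_at probe set, which can bind related transcripts, and the largest of 5 differences, all higher, from 0.31 to 1.21. Of the 5, 3 were without overlap, and the brightest differed by 0.65 (SE 0.24). Cyfip2 and the x_at probe set of Tpm3 were lowest on transitional 5, and neither overlapped between the groups after scaling to a common median.

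Dock8, an exchange factor that activates Cdc42 in lymphocytes, gave 1871, 1992 and 1376 against 246 to 1325 (median 813), a difference of 1.18 (SE 0.44). Rcsd1, which binds the actin capping protein CapZ, gave 2073, 2237 and 2646 against 404 to 2012 (median 1246), a difference of 1.07 (SE 0.39). Arhgef2, an exchange factor for RhoA held on microtubules, gave 477, 619 and 463 against 111 to 377 (median 293), a difference of 0.97 (SE 0.36). Against marginal 2 and 3 alone Dock8 differed by 0.75 (SE 0.58), Rcsd1 by 0.77 (SE 0.53) and Arhgef2 by 0.47 (SE 0.44). The haunch tumor array for Dock8 and the neck tumor array for Rcsd1 lay just above the highest of the other group, and both genes overlapped after scaling to a common median.

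Smarca2, an ATPase of the same SWI/SNF remodeller as Smarcb1, gave 394, 431 and 750 against 67 to 393 (median 243), a difference of 1.25 (SE 0.49). Against marginal 2 and 3 alone Smarca2 differed by 0.79 (SE 0.64). Its neck tumor array was barely above the highest failure-to-nest array, and it too overlapped after scaling to a common median. The other probe set of Smarca2 overlapped as deposited, at 226, 351 and 473 against 72.8 to 438. It differed by 0.54 (SE 0.50), and by 0.13 (SE 0.67) against marginal 2 and 3. Pdcd6ip (ALIX), which works with the ESCRT machinery in membrane scission, gave 658, 591 and 586 against 132 to 509 (median 334), a difference of 1.02 (SE 0.39), but 1 of its 5 probe sets was lower. Only this 1 probe set of Pdcd6ip was without overlap, and its brightest differed by 0.14 (SE 0.20). Csnk2a2, a catalytic subunit of casein kinase 2, gave 289, 197 and 370 against 106 to 184 (median 119), a difference of 1.02 (SE 0.28), and 1 of its 7 probe sets was lower. Only this 1 probe set of Csnk2a2 was without overlap, and it overlapped after scaling to a common median. The brightest probe set of Csnk2a2 differed by 0.44 (SE 0.19). Of the other two, Lpgat1, a lysophospholipid acyltransferase, differed by 1.18 (SE 0.44) and Wls, which carries Wnt proteins to the cell surface, by 1.08 (SE 0.44). Both were highest in the haunch tumor mouse, at 1192 and 521. The gap to the highest failure-to-nest array was narrow, with the leg tumor array at 499.3 against 471.5 for Lpgat1 and 236.2 against 212.2 for Wls. All 4 probe sets of Lpgat1 and all 3 of Wls were higher, but only 1 of each was without overlap. The brightest of Lpgat1 differed by 0.91 (SE 0.58).

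Among the 12 lower genes, Cops2, a subunit of the COP9 signalosome that removes NEDD8 from cullins, gave 674, 932 and 1115 on the neck, leg and haunch tumor arrays. In failure to nest it ran from 1326 on marginal 2 to 3580, with a median of 1921. The difference was -1.15 (SE 0.29), and -0.94 (SE 0.39) against marginal 2 and 3. The other probe set of Cops2 differed by -1.13 (SE 0.48) but overlapped, at 137, 202 and 309 against 205 to 1303. Uba3, the catalytic subunit of the enzyme that activates NEDD8, gave 314, 256 and 567 against 590 to 849 (median 650), a difference of -0.89 (SE 0.25). All 3 of its probe sets were lower, 2 of them without overlap. For Uba3 the haunch tumor array came within a narrow gap of the other group, while the neck and leg tumor arrays were clearly apart.

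C1qb, a chain of the complement protein C1q made by macrophages, had the largest lower difference, at -2.0 (SE 0.77). Its signals were 129, 173 and 131 in solid tumour and 182 to 4922 with a median of 448 in failure to nest. The wide spread came from transitional 2, at 4922, and marginal 2, at 1096, and the other 2 probe sets of C1qb overlapped between groups. Scfd1, which guides membrane fusion between endoplasmic reticulum and Golgi, gave 419, 701 and 437 against 806 to 1255 (median 1003), a difference of -0.98 (SE 0.22). Its failure-to-nest arrays lay close together, although its other, near-background probe set was higher in solid tumour.

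Orc4, a subunit of the origin recognition complex, gave 299, 454 and 532 against 578 to 1274 (median 810), a difference of -0.94 (SE 0.27), and 1 of its 3 probe sets did not share the direction. Cacybp, which binds the S100 protein calcyclin, gave 1172, 1747 and 2359 against 2474 to 6938 (median 3114), a difference of -0.97 (SE 0.32). Actr6, an actin-related protein of a remodeller that places histone H2A.Z, gave 276, 263 and 351 against 442 to 879 (median 579), a difference of -0.97 (SE 0.25). For all 3 genes the highest failure-to-nest signal was on transitional 5.

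Timm8b, which escorts proteins into the inner mitochondrial membrane, gave 606, 470 and 435 against 651 to 1839 (median 907), a difference of -0.98 (SE 0.32). Bcap29, a membrane protein of the endoplasmic reticulum, gave 517, 581 and 648 against 725 to 1459 (median 1114), a difference of -0.88 (SE 0.24). For both the lowest failure-to-nest array was marginal 2, and against marginal 2 and 3 alone the difference of Bcap29 was -0.45 (SE 0.26), the smallest of the 12. Zfp958, a zinc finger gene, differed by -1.21 (SE 0.34), Ss18l2 by -0.94 (SE 0.28), and Nudcd1 by -0.97 (SE 0.28) with its other probe set higher.

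**Figure D3:**
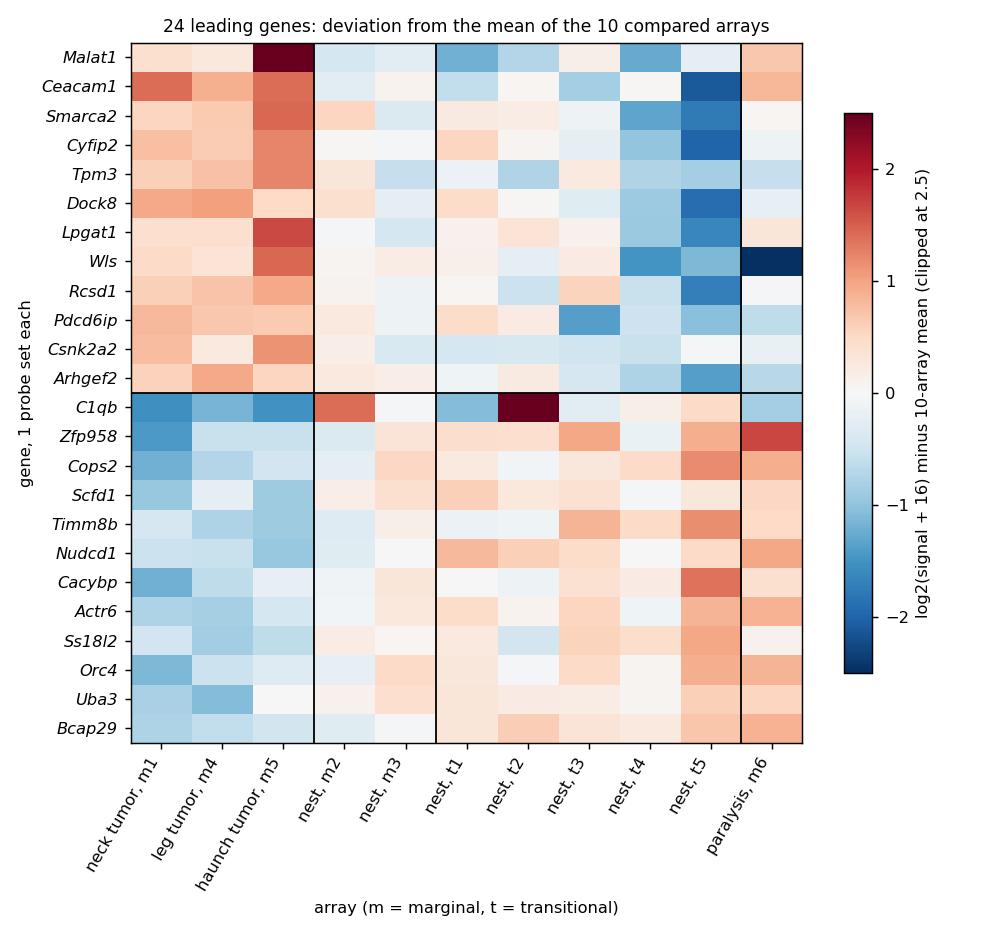
Deviation of log2(signal + 16) from the mean of the 10 compared arrays (colour, clipped at 2.5) for the 24 leading genes (vertical axis) on each array (horizontal axis, black lines between solid tumour, marginal nest, transitional nest and paralysis). The 12 upper genes are red on the 3 solid tumour arrays and the 12 lower genes blue, with the strongest single value among the upper genes for Malat1 on the haunch tumor array (21701), and transitional 5 is the lowest array for most of them.

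The B cell genes separated the failure-to-nest arrays from each other more than the signs. All 18 measured genes of the B cell identity list had a higher mean in solid tumour, with a median difference of 0.92, but of the 17 with a mean signal of at least 200 in a group, 0 were without overlap (1.52% of all genes). Against marginal 2 and 3 alone 13 of 18 were higher, with a median of 0.11. The list score was -0.34, 1.38 and 0.87 on the neck, leg and haunch tumor arrays. It was 1.03 and 0.10 on marginal 2 and 3, 0.49, -0.09 and 0.68 on transitional 1 to 3, and -1.94 and -2.18 on transitional 4 and 5. The neck tumor array was thus below 5 of the 7 failure-to-nest arrays, and without transitional 4 and 5 the median was 0.20.

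Ebf1, which with Pax5 sets up the B cell programme, gave 774, 2665 and 2396 in solid tumour against 161 to 2154 (median 944), a difference of 1.43 (SE 0.72). Against marginal 2 and 3 alone it was 0.20 (SE 0.82). Pax5, which maintains B cell commitment, differed by 0.90 (SE 0.57), and Ralgps2, an exchange factor for Ral, by 1.04 (SE 0.71). Against marginal 2 and 3 alone Pax5 differed by 0.53 (SE 0.77) and Ralgps2 by 0.05 (SE 0.87). All 3 overlapped between the groups. Transitional 4 and 5, the lowest arrays for these genes, stood highest for erythroid genes (scores 2.25 and 2.07), and the part of this in the B cell values was not tested.

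Follicular and egress genes of B cells followed the same arrays, with 8 of 9 higher and a median of 0.56, but 0.09 against marginal 2 and 3 and -0.09 without transitional 4 and 5. Klf2, a factor that keeps lymphocytes quiescent and mobile, gave 6380, 2982 and 2930 against 1318 to 3697 (median 3273), so only the neck tumor array stood above the others. Foxp1 differed by 0.89 (SE 0.58), and S1pr1, the receptor that guides lymphocyte egress, by 0.82 (SE 0.64) but by -0.16 (SE 0.76) against marginal 2 and 3. Of the B1 and marginal zone list 13 of 14 were higher, with a median of 0.37 (0.16 against marginal 2 and 3). Notch2, the receptor that drives marginal zone B cell fate, gave 1249, 2089 and 1040 against 462 to 1741 (median 784), and Dtx1, a target of Notch, differed by 1.40 (SE 0.70). Against marginal 2 and 3 alone Notch2 differed by 0.15 (SE 0.42) and Dtx1 by 0.34 (SE 0.83). Ahnak, a large scaffold protein, differed by 0.94 (SE 0.55) and was highest in the haunch tumor mouse, at 4038. All 3 overlapped.

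Antigen presentation genes gave a similar picture. In the MHC class II list 9 of 10 were higher with a median of 0.44, and in the MHC class I list 10 of 11 with a median of 0.41, but the medians were -0.06 and -0.14 without transitional 4 and 5. Cd74, the invariant chain, gave 18737, 34356 and 29280 against 8419 to 28044 (median 21539), so only the leg and haunch tumor arrays were above the other group. H2-Oa differed by 0.75 (SE 0.77), H2-Aa by 0.43 (SE 0.44), Tapbp, a chaperone of peptide loading, by 0.54 (SE 0.54), the peptide transporter subunit Tap1 by 0.60 (SE 0.69) and H2-K1 by 0.45 (SE 0.50). The neck tumor array had low scores in both lists, -0.54 and -0.48.

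Genes of dividing cells had lower means in solid tumour, again without a call. In the mitosis list 1 of 26 was higher and 25 lower, with a median of -0.43, and against marginal 2 and 3 alone the median was -0.60. The score was 0.70 on the neck tumor array, -1.01 on the leg and -0.64 on the haunch tumor array. In failure to nest it ran from -1.06 on transitional 3 to 1.51 on transitional 4. The solid tumour arrays thus spanned most of the range of the others, and without transitional 4 and 5 the median was 0.07. Mad2l1, which holds the spindle checkpoint, gave 1708, 1032 and 1202 against 1518 to 5140 (median 2733), a difference of -1.05 (SE 0.38). Only the neck tumor array overlapped the other group for Mad2l1, and the lowest marginal failure-to-nest array gave 1793. Bub1, a checkpoint kinase, differed by -1.06 (SE 0.62) and Kif11, a motor of spindle assembly, by -0.86 (SE 0.62).

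In the DNA replication list 3 of 24 were higher, with a median of -0.28 (-0.29 against marginal 2 and 3, 0.16 without transitional 4 and 5). Rfc4 and Rfc3, subunits of the clamp loader, differed by -1.01 (SE 0.56) and -0.64 (SE 0.38). Pold1, the catalytic subunit of DNA polymerase delta, had a higher mean by 0.31 (SE 0.21). In the respiratory chain and ATP synthase list 5 of 32 were higher, with a median of -0.18 (-0.04 against marginal 2 and 3). Cox6c, a subunit of cytochrome c oxidase, was the only member of a described list, at a mean signal of at least 200, whose solid tumour arrays all lay below the others (1 of 356 genes, 0.281%, beside 0.862% of all genes), at 8815, 9605 and 9124 against 9845 to 22650 (median 12000). Its difference was -0.50 (SE 0.25), and -0.18 (SE 0.32) against marginal 2 and 3. Ndufa1 and Ndufa2, small subunits of complex I, differed by -0.47 (SE 0.21) and -0.42 (SE 0.23) with overlap.

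Heat shock chaperones were lower in mean for 15 of 16 genes, with a median of -0.32 (-0.22 against marginal 2 and 3). The inducible Hsp70 genes Hspa1a and Hspa1b, which are near-identical and may share signal, spread widely within both groups. Hspa1b gave 5657, 428 and 76.3 against 238 to 15500 (median 3077), and Hspa1a 2439, 116 and 10.6 against 80.9 to 14287 (median 1013). Hspe1, the mitochondrial co-chaperonin, differed by -0.52 (SE 0.28). The neck tumor array and transitional 5, whose immediate early gene scores were also the highest (1.87 and 1.49), were the highest of their groups over the list (scores 0.23 and 1.47). Of the immediate early list 13 of 20 were higher, beside 57.9% of all measured genes, with a median of 0.27 (0.60 against marginal 2 and 3). The median was -0.61 without the neck tumor array, so its sign rested on that array. The AP-1 subunit Jund gave 9469, 6761 and 7517 against 3393 to 8298 (median 5313), a difference of 0.52 (SE 0.25). Egr3 differed by 0.66 (SE 0.34), and Btg2 by 0.37 (SE 0.31) but by -0.09 without marginal 1.

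Tgfb1, which encodes the cytokine TGF-beta 1, was the 1 member without overlap among the 10 of the TGF-beta list with a mean signal of at least 200, beside 1.52% of all genes. Its signals were 1691, 1599 and 1177 on the neck, leg and haunch tumor arrays. In failure to nest they ran from 540 to 1032 with a median of 876, and the marginal arrays gave 876 and 621. The difference was 0.87 (SE 0.24), and 0.98 (SE 0.33) against marginal 2 and 3, with a limma p of 0.958 adjusted over all probe sets. The groups also did not overlap after scaling to a common median, where the difference was 0.69. Of the other 11 measured genes of the list 9 were higher, with a median of 0.19, but 0.03 against marginal 2 and 3, and 0 were without overlap. With Tgfb1 the list median was 0.24, and -0.03 without transitional 4 and 5. Smad4, the shared partner of the receptor-activated Smads, differed by 0.65 (SE 0.45), and Id2, an inhibitor of helix-loop-helix factors, by -0.47 (SE 0.44).

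In the NF-kB list 16 of 19 genes were higher, with a median of 0.46 (0.34 against marginal 2 and 3, 0.09 without transitional 4 and 5). Rela, its main transactivating subunit, gave 1443, 1765 and 1529 against 773 to 1490 (median 1010), a difference of 0.57 (SE 0.22). The highest of the other group, 1490 on marginal 2, lay above the neck tumor array alone. Relb differed by 0.83 (SE 0.56) and Bcl3, a nuclear IkB protein, by 0.76 (SE 0.55). Of the interferon response list 14 of 21 were higher, beside 57.9% of all measured genes, with a median of 0.30 (0.36 against marginal 2 and 3, -0.18 without transitional 4 and 5). Leaving out marginal 4, marginal 5 or transitional 4 alone gave -0.02, -0.08 and -0.03. Oasl2, an interferon-induced antiviral gene, gave 353, 179 and 170 against 17.8 to 250 (median 77.7), a difference of 1.41 (SE 0.52). Irf9, the DNA-binding subunit of the interferon-activated complex, differed by 0.59 (SE 0.35), and Ifih1, a sensor of viral RNA, by -0.45 (SE 0.25).

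Of the BCL2 family and apoptosis list 12 of 16 were higher, with a median of 0.26 (0.10 against marginal 2 and 3), beside 57.9% higher and a median of 0.08 over all measured genes. Bbc3 (Puma), which triggers apoptosis downstream of p53, was lower at 161, 75.7 and 194 against 163 to 481 (median 277), a difference of -0.90 (SE 0.36). Bid, another death-promoting member, was higher at 1122, 1728 and 2086 against 628 to 1507 (median 1035), a difference of 0.69 (SE 0.31). Casp9, the caspase activated by released cytochrome c, differed by 0.52 (SE 0.30). For Bbc3 the haunch tumor array, and for Bid the neck tumor array, lay within the other group.

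Genes of adhesion, proteases and invasion did not lean to either side. Of 27 measured, 13 were higher and 14 lower, with a median of -0.01 (-0.18 against marginal 2 and 3), and 0 of the 26 with a mean signal of at least 200 were without overlap, beside 1.52% of all genes above and 0.862% below, shares at which fewer than 1 of 26 would be counted. Leaving out marginal 2, marginal 5, transitional 2 or transitional 3 turned this median, to between 0.02 and 0.12. L1cam, an adhesion molecule, gave 376, 295 and 171 against 71.0 to 298 (median 188), a difference of 0.65 (SE 0.40). Msn, which links membrane to actin, differed by 0.60 (SE 0.38), and the protease Ctsl by -0.83 (SE 0.54).

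Most markers of the tissues around the named sites were dim on all arrays, with an exception each among the fat and the bone markers. Of the skeletal muscle markers 13 of 20 were below a signal of 100 on all 10 arrays and 17 of 20 below 200, and their summed signal was 772 to 1080 in solid tumour against 646 to 1220 in failure to nest. Of the epithelium, skin and salivary gland markers 14 of 16 were below 200 on all 10 arrays, with sums of 856 to 1012 against 496 to 1156. Of 10 adipocyte markers 9 were below 200 on all 10 arrays, but the list summed to 2667, 10300 and 8924 on the neck, leg and haunch tumor arrays against 1024 to 7905. The measured marker was Scd1, a fatty acid desaturase, at 2434, 10064 and 8740 against 814 to 7710, a difference of 1.16, and 0.27 against marginal 2 and 3. Its leg and haunch tumor arrays thus lay above the other group and the neck tumor array within it. Of 11 cartilage and bone markers 10 were below 200, with sums of 2421, 6218 and 3205 against 2157 to 7512, nearly all from Acp5, an acid phosphatase of osteoclasts and macrophages. Scd1 and Acp5 are named here after their values were seen. The part of these tissues in other differences was not tested. The 18 B cell identity genes summed to 41228 on the neck, 143723 on the leg and 119442 on the haunch tumor array, against 11287 to 107684 in failure to nest. B cell transcripts were thus measured on every array, with the lowest scores on transitional 4 and 5.

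Markers of other blood cells varied within both groups. The macrophage list had 3 of 16 genes higher and a median of -0.54 (-0.64 against marginal 2 and 3). Mrc1, the mannose receptor, gave 91.0, 78.8 and 108 against 88.8 to 613 (median 200), a difference of -1.07 (SE 0.47), and all 3 lay below both marginal failure-to-nest arrays. Msr1, a scavenger receptor, differed by -0.94 (SE 0.64) and C1qc by -1.33 (SE 0.99), each with its highest signal, 657 and 4478, in the failure-to-nest group.

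Neutrophil genes set the neck tumor mouse apart from the leg and haunch tumor mice. The list score was 3.01 on the neck tumor array and -1.37 and -1.68 on the others, with 2.01 on marginal 3 and 2.10 on transitional 4. Csf3r, the receptor for granulocyte colony-stimulating factor, gave 3161, 514 and 370 against 73.5 to 963, and Il1b, an inflammatory cytokine, 7518, 865 and 1226 against 394 to 2337. S100a9, an abundant neutrophil protein, gave 34829, 7071 and 7813 against 3926 to 36493. Over the list 6 of 15 were higher, with a median of -0.15 (-1.35 against marginal 2 and 3). This median had no stable sign: it was -1.89 without the neck tumor array, 0.63 without the leg and 0.79 without the haunch tumor array, 0.26 without marginal 3, 0.35 without transitional 4, and 0.45 without transitional 4 and 5. The summed signal of the list on the neck tumor array was 260867, and its part in other differences of that array was not tested.

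Erythroid genes had the reverse sign in the 2 comparisons. Of 17 genes 13 were higher than in all 7 failure-to-nest arrays (median 0.15), but 0 of 17 were higher than in marginal 2 and 3 (median -0.94). Leaving out marginal 1, transitional 1, transitional 2 or transitional 3 turned the first median, to -0.54, -0.39, -0.14 and -0.17, and without transitional 4 and 5 it was 1.11. Alas2, the first enzyme of heme synthesis in red cells, gave 11966, 8894 and 6605 against 233 to 18342 (median 16271), with 17063 and 17587 on marginal 2 and 3. Slc4a1, the anion exchanger of the red cell membrane, differed by 0.91 (SE 1.0) and by -0.49 (SE 1.23) against marginal 2 and 3, and the carbonic anhydrase Car2 by 0.57 (SE 0.91) and -0.70 (SE 1.11). The erythroid score was lowest on transitional 1 to 3, at -3.35, -1.60 and -1.80.

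T cell, cytotoxic, plasma cell and matrix genes showed no common direction, while 57.9% of all measured genes were higher. Of 15 T cell genes 9 were higher (median 0.26, but -0.68 without transitional 4 and 5, and -0.16, -0.09 and -0.31 without marginal 4, transitional 4 or transitional 5 alone), with Cd28 at 0.79 (SE 1.0), Cd4 at 0.48 (SE 1.02) and Ms4a4b at 1.02 (SE 1.75). The Ms4a4b value rested on the haunch tumor mouse, at 1825 against 2.8 and 7.3, and was -1.14 without it. Of 10 NK and cytotoxic genes 4 were higher (median -0.08, but 0.36, 0.26 and 0.42 without marginal 1, transitional 1 or transitional 2), with Gzma at 0.51 (SE 0.56), Klrd1 at -0.47 (SE 0.68) and the chemokine Ccl5 at 0.30 (SE 1.21). Of 12 plasma cell genes 5 were higher (median -0.12, but 0.19 and 0.11 without marginal 5 or transitional 1). Slpi, a protease inhibitor, gave 4768, 1659 and 518 against 809 to 20703 (median 7684) and lay below both marginal failure-to-nest arrays. Ell2, an elongation factor of secreting cells, differed by -0.55 (SE 0.28), and Tnfrsf13b (TACI) by 0.82 (SE 0.67).

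Of 24 fibroblast and matrix genes on the array 11 were measured and 5 of these were higher (median -0.03, 0.34 against marginal 2 and 3). The median was 0.05, 0.32 and 0.35 without marginal 3, marginal 5 or transitional 2. Col6a3 gave 112, 140 and 209 against 39.7 to 339 (median 60.7), and Col6a2 127, 121 and 172 against 44.8 to 185. Dcn, a matrix proteoglycan, gave 21.6, 7.3 and 26.5 against 6.0 to 1759, the highest on transitional 2. The list score was between -0.16 and 0.02 on the solid tumour arrays and 2.47 on transitional 2, so the strongest matrix signal was in a mouse that failed to nest.

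**Figure D4:**
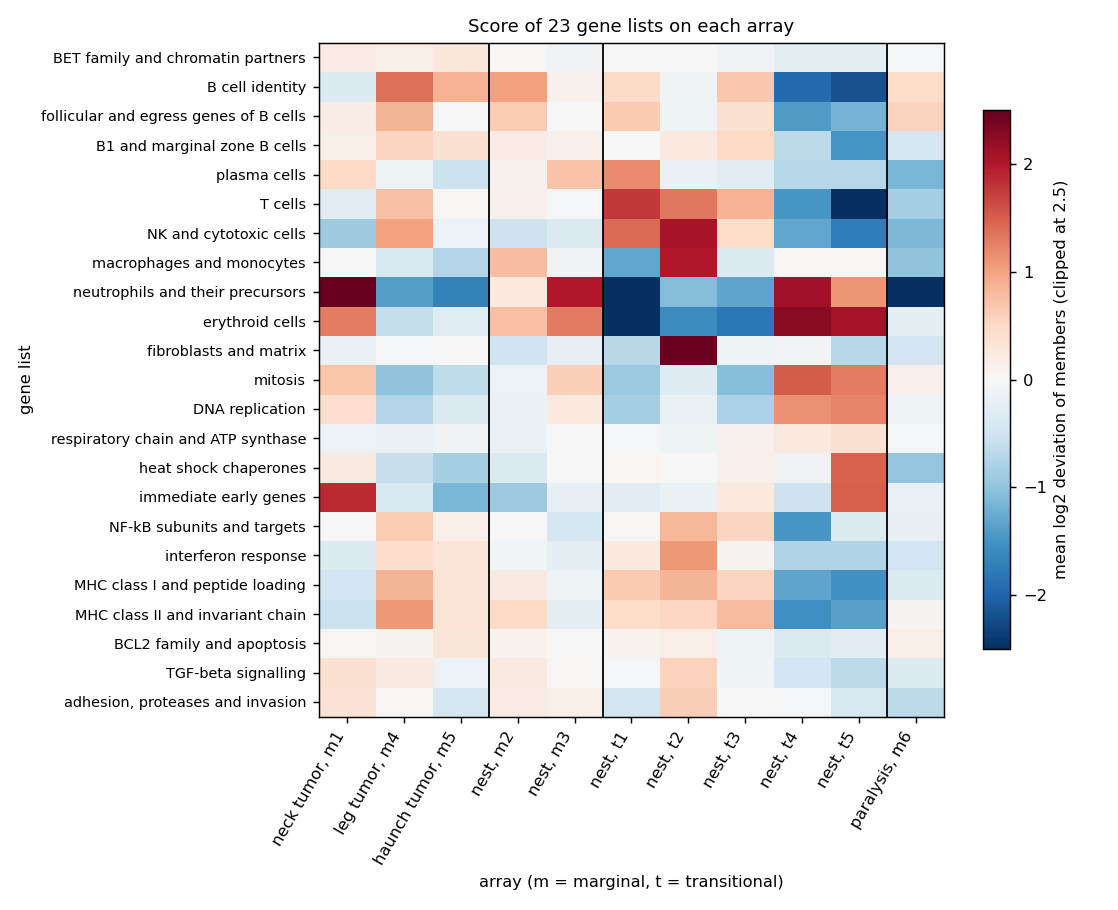
Score of the 23 described gene lists (vertical axis) on each array (horizontal axis), from the deposited signals. It is the mean log2 deviation of measured members from the 10-array mean (colour, clipped at 2.5). The BET list is the faint upper band that is positive on the 3 solid tumour arrays, while B cell lists are lowest on transitional 4 and 5 and neutrophil genes are highest on the neck tumor array.

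Across all 44 lists with a measured member, 27 had a positive and 17 a negative median, and 31 kept their sign against marginal 2 and 3. Of the 23 lists described, only the erythroid median turned sign after scaling to a common median, to -0.03, beside -0.10 over all measured genes. Among the described lists the neutrophil, erythroid and B cell identity medians differed most between both comparisons, which share the solid tumour arrays.

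**Figure D5:**
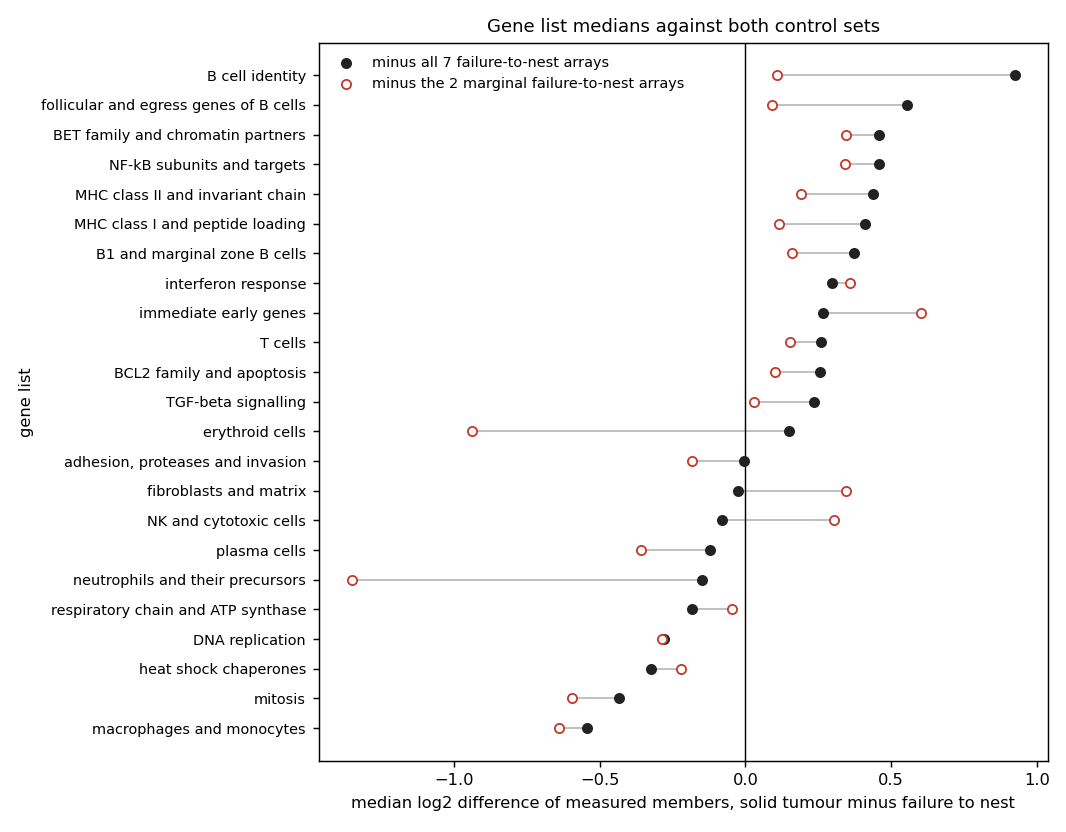
Median log2 difference of each described gene list, solid tumour minus all 7 failure-to-nest arrays (filled) and minus the 2 marginal failure-to-nest arrays (open), with a grey line joining both. B cell identity goes from 0.92 to 0.11, erythroid cells from 0.15 to -0.94 and neutrophils from -0.15 to -1.35, while the BET list goes from 0.46 to 0.34.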

How the data were processed

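RNA of each lymphoma was hybridised to 1 expression array after labelling from a poly-dT primer, per the labels. The deposited values are intensities, not logged, which the authors obtained with MAS5, per the submitters' processing notes, version not given in the sources used here. Their 2% trimmed mean was 500.2 on every array, so a shift of most transcripts would not be seen. The 64 AFFX controls were left out of 22690 probe sets. Of the other 22626, 20380 had 1 gene in GEO's platform annotation, 691 several and 1555 none, and genes were named only from the first. No 2 arrays held identical values.

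Log2(signal + 16) was fitted with limma 3.58.1 in R 4.3.3 (lmFit, then eBayes with a trend on intensity; tests were two-sided and adjusted by Benjamini-Hochberg over all probe sets), in 2 groups, and in 3 groups for the contrast with marginal 2 and 3. The fit was tested on simulated data. Exact permutation tests and counts were computed with Python 3.11.15 and scipy 1.17.1. Gene lists used the brightest probe set of a gene, measured where a group mean reached 100.

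The named genes are Brd2, up to 12 in each direction past adjusted p 0.05 or, failing that, from probe sets without overlap and a mean of at least 200 by size of difference, and in each described list the 3 measured members with the smallest p. Members, lists and rules were chosen with earlier results of these data known. Alternatives were the offset (1 and 64), quantile normalization, median scaling, the upper 60% and 40% of probe sets by mean, array weights, eBayes with no trend, a block for sample number, the paralysis array in the fit, the marginal class alone, the fit without transitional 4 and 5, averaging a gene's probe sets, and leave-one-out fits. Chosen after seeing the data were Xist as a covariate and only the 6 arrays with Xist signal. The labels give no animal numbers, so p-values measure the spread between these samples, and their number limits the precision. No batch record was used.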

Additional observations from a re-analysis of the deposited data

Results flagged for a closer look

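In the 7 failure-to-nest arrays, 49 levels (the leading genes, Brd2 and the list scores) were searched for an array far from the rest, by the gap between it and its nearest neighbour as a share of the group's whole range. Chance marks about 1 in 20 such groups, and 4 of the 49 stood out.

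The score of fibroblast and matrix genes was highest on transitional 2, at 2.47, with a gap of 0.802 of the range. The score of heat shock chaperones was highest on transitional 5, at 1.47, with a gap of 0.726. Ceacam1 was lowest on transitional 5, at a signal of 156, with a gap of 0.572 of the range, and without that array its difference between solid tumour and failure to nest was 1.5. Cacybp was highest on transitional 5, at 6938, with a gap of 0.651.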

How the results depend on the processing

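limma called 0 probe sets between solid tumour and failure to nest under every alternative run, leave-one-out fits included, with 420 to 1409 at an unadjusted p under 0.05. Sample numbers were treated as names only. The deviations of each solid tumour array and the transitional array of the same number correlated at -0.57, -0.49 and -0.22. These arrays are of opposite groups, and deviations from a shared mean lean to negative values, so pairing cannot be decided from them. With the sample number as a replicate block there were still 0 calls, and 1 call against the marginal failure-to-nest arrays. The count of probe sets without overlap, 157 higher and 86 lower, moved more. Leaving out each array gave 166 to 592 higher and 88 to 369 lower, the largest without marginal 1 and marginal 5, and counts also passed 1.5 times the reported ones without marginal 2 (240 and 131), marginal 4 (405 and 215) and, for lower, transitional 2 (139). Fewer arrays to clear gives more by construction, as for the marginal class alone (1007 and 698), the 6 arrays with Xist signal (817 and 420) and lower without transitional 4 and 5 (149). Median scaling gave 49 higher.

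The 24 leading genes were chosen for groups without overlap, which fixes their sign in any fit on fewer arrays. Among the other named genes, all with no call, the sign turned for Btg2 without marginal 1 (range over leave-one-out fits -0.094 to 0.74), Cd4 without marginal 4 (-0.11 to 1.25), Ccl5 without marginal 4 (-0.61 to 1.26) or transitional 5 (-0.32) and Ms4a4b without marginal 5 (-1.14 to 2.17). Without transitional 4 and 5 it turned for Cd28 (-0.21), Cd4 (-0.21), Ccl5 (-0.71), H2-K1 (-0.041), Tap1 (-0.029) and H2-Aa (-0.0092), and 9 of 23 list medians turned. In the marginal class alone it turned for S1pr1 (-0.16), Slc4a1 (-0.49), Alas2 (-0.96) and Car2 (-0.70). With Xist as a covariate or only the arrays with Xist it turned for Ms4a4b (-0.31) and Car2 (-0.050), and with the block for Klrd1 (0.39). The cause was not tested. Leaving out 1 array turned 1 to 5 of the 23 list medians at a time, 9 of them at least once, and 14 kept their sign in each such fit. Lists with a positive median numbered 20 to 32 over the leave-one-out fits.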

Other observations

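The lymphoma of the mouse with paralysis (marginal 6) entered no comparison. For the 12 genes that were higher in solid tumour it lay within or beyond the failure-to-nest side for 10, between the groups for Ceacam1 (1299) and on the solid tumour side for Malat1 (3465). Its Wls signal was 9.0, below every other array. For the 12 lower genes it lay on the failure-to-nest side for 12 of 12, with Cops2 at 2943, Zfp958 at 867 and Bcap29 at 1647. Both Brd2 probe sets, at 2340 and 559, were within the failure-to-nest range. This mouse was of the marginal class, as were the solid tumour mice. The 12 higher and 12 lower genes were chosen because the solid tumour arrays stood apart from the others. An array outside that choice can therefore fall on the failure-to-nest side without any true difference. These counts have no background share beside them, and whether they reflect sign or class was not tested.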
